A study of Mus musculus with 4 samples.

Results

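The replication-dependent histone genes were described in liver RNA of Fto knockout and wild-type mice. RNA fragments bound by an antibody to methylated adenosine (the immunoprecipitate) were measured beside input RNA. Members were all rows whose gene name begins with Hist1h, Hist2h, Hist3h or Hist4h, and they were grouped into the 5 classes H1, H2A, H2B, H3 and H4. The immunoprecipitate table, which is by transcript, held 56 such rows of 7569, carrying 52 gene names. The input table, which is by gene, held 23 of 12883. Together they named 54 genes, of which 21 were in both tables, 31 in the immunoprecipitate alone and 2 in the input alone. No Hist3h or Hist4h row was among them.

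Histone mRNAs of this kind come from genes without introns, and most of them end in a stem-loop in place of a poly(A) tail. The stem-loop is bound by SLBP, and the U7 snRNP directs the cleavage that forms the end. H2A, H2B, H3 and H4 build the core of the nucleosome, while H1 binds the linker DNA between nucleosomes. Their mRNAs accumulate mainly while DNA is replicated, and most hepatocytes of an adult liver do not divide. Since the libraries were made from total RNA, mRNAs without a poly(A) tail could enter them.

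The groups were Fto knockout immunoprecipitate, wild-type immunoprecipitate, Fto knockout input and wild-type input, all from liver biopsies on a C57/Bl6 background, with 3 replicates stated for each. The Fto protein removes methyl groups from adenosines of RNA. The knockout allele and the age and sex of the mice were not given in the labels, nor whether each replicate was a separate animal. A p therefore measures only the spread of these samples, which may be technical. Values of single libraries were not analysed here. Each feature has the authors' mean normalized count over all libraries of its table, a log2 fold change with its standard error (SE), a p and an adjusted p, and a feature was called where the authors' adjusted p was under 0.05.

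The headers do not state the direction of the fold change. In the authors' deposited table of the input Fto stood at −1.49 (SE 0.27, adjusted p = 3.52e-04 by the authors' fit, mean 55.8), so its fold changes were taken as knockout over wild type, and the sign of Fto is no separate result. The same direction was assumed for the immunoprecipitate, where the opposite one would turn every sign. Its median feature lay at −1.59 in the authors' deposited table, so a sign near 0 there depends on the scaling. In the input the median gene lay at 0.02. Of the hepatocyte markers checked, 6 of 6 were in the input with means up to 84262.

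H1 promoters carry elements of their own, and the 250 bases before the start of 5 H1 genes are printed because H1 and core histones are described separately in the input. They are from RefSeq on GRCm38.p6 (the build also called mm10), all on chromosome 13, each read along its gene's strand toward the start of transcription. Hist1h1c is at chr13:23738557-23738806 (+), Hist1h1d at chr13:23554782-23555031 (+), Hist1h1e at chr13:23622559-23622808 (−), Hist1h1a at chr13:23763418-23763667 (+) and Hist1h1b at chr13:21780626-21780875 (−). Capitals mark matches, on either strand, to AAACACA (the H1 box), to CCAAT, to the TATA box as TATAAA, and to ATTTGCAT (the octamer known from H2B promoters).
Hist1h1c: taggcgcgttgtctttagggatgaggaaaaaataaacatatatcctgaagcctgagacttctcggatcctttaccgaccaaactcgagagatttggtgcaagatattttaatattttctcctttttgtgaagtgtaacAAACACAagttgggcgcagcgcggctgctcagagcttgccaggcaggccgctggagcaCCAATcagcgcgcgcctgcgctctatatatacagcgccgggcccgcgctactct
Hist1h1d: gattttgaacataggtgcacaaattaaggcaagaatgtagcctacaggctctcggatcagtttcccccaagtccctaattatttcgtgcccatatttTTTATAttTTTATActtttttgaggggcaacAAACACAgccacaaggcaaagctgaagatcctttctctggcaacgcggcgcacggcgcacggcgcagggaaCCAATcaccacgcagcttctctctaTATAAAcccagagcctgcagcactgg
Hist1h1e: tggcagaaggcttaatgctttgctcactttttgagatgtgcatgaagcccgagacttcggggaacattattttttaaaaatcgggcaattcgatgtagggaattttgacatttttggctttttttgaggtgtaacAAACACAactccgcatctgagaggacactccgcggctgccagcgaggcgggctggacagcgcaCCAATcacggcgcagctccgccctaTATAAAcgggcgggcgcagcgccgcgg
Hist1h1a: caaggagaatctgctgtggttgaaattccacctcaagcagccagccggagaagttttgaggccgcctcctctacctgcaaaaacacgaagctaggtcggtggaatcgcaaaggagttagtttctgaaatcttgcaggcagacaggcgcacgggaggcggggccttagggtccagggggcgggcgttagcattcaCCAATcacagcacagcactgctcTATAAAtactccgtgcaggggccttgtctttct
Hist1h1b: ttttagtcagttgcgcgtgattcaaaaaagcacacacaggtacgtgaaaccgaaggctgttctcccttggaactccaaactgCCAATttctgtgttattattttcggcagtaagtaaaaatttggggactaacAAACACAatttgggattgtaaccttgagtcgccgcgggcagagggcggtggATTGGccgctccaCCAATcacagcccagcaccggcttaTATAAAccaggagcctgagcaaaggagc

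The H1 box was found in 5 of 6 H1 promoters, against 2 of 43 core promoters and 6.25% of all 32851 promoter windows of the same length. Of the 54 members 49 had a promoter in the table. CCAAT was in 6 of 6 H1 and 35 of 43 core promoters, and in 33.8% of all windows. TATAAA was in 4 of 6 and 20 of 43, and in 12.4% of all windows. The octamer was in 5 of 12 H2B and 5 of 14 H2A promoters, in 0 of 6 H1 promoters and in 1.60% of all windows. H2A and H2B genes often stand head to head, so a match in the gap between them counts for both genes. A match is a description of letters, and for Hist1h1a no match to AAACACA says only that these letters are not in its window.

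H2A and H2B genes that start from opposite sides of one short gap were printed next, because in 5 of 7 such pairs the immunoprecipitate gave the partners unlike values. The gaps, between the start sites of the pair and on the plus strand of GRCm38.p6, are chr13:21716184-21716411 for Hist1h2bl and Hist1h2ai, chr13:22035644-22035820 for Hist1h2ah and Hist1h2bk, chr13:23571221-23571399 for Hist1h2ae and Hist1h2bg, and chr13:23574208-23574380 for Hist1h2bf and Hist1h2ad. The gene named first lies to the left on the minus strand. Capitals mark the same motifs.
Hist1h2bl and Hist1h2ai: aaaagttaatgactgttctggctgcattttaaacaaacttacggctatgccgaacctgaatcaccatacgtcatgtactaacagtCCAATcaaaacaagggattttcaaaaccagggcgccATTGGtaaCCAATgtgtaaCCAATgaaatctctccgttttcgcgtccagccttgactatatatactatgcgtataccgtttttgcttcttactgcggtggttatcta
Hist1h2ah and Hist1h2bk: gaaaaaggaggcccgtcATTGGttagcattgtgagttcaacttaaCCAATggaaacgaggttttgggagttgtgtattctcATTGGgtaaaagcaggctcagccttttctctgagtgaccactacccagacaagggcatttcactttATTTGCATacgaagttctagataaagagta
Hist1h2ae and Hist1h2bg: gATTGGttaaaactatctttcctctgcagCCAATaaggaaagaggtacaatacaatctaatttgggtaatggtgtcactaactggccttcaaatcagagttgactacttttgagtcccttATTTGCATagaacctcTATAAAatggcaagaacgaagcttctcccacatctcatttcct
Hist1h2bf and Hist1h2ad: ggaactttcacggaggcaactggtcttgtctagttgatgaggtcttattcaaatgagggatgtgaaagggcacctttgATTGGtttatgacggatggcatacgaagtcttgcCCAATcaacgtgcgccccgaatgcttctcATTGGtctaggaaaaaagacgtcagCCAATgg

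The immunoprecipitate values of many histone rows, which bear on every comparison, were nearly equal to those of their neighbours. On chromosome 13 the 46 Hist1 rows lie in 3 stretches, starting at 21715711, 22035122 and 23533875, and the 10 Hist2 rows lie in 1 stretch on chromosome 3 starting at 96219885 (RefSeq positions on GRCm38.p6). Some rows of different classes on 1 strand had nearly the same mean and fold change, while others in the same stretch lay far apart. Near-equal is used here for means within a ratio of 1.1 and log2 fold changes within 0.1 of each other. Sets were linked pair by pair, so the outer members of a set can differ by more. Of the 34 histone rows with a mean of at least 10, 16 lay in such sets on 1 strand of a stretch.

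The clearest set joined all 4 core classes. Hist1h4f, Hist1h3e, Hist1h2ae and Hist1h2bf, on the minus strand within 22.5 kb, lay at −2.78 to −2.68 (log2 fold change) with means from 40.4 to 42.9 in the authors' deposited table. Hist1h2ah, Hist1h4i and Hist1h2ag, within 7.36 kb, had means from 71.9 to 72.1 and log2 fold changes all at −2.15 in the authors' deposited table. In the first stretch Hist1h2ai, Hist1h2bm, Hist1h2bn and Hist1h2bp, on the plus strand, had means from 93.5 to 95.7 at −1.04 to −1.03 in the authors' deposited table. There the minus-strand genes Hist1h2bl and Hist1h2ak stood close by, with means of 91.7 and 92.7 at −1.03 and −1.04 in the authors' deposited table. In these sets rows of different histone classes carried nearly 1 value.

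A few neighbouring genes that encode no histone lay near these values, and most did not. Of 13 such genes within 100 kb of the Hist1 stretches, 1 was near-equal to a histone row. The serine protease gene Prss16, within 100 kb of Hist1h2ah, had a mean of 71.3 at −2.02 in the authors' deposited table. The butyrophilin genes Btn1a1 and Btn2a2, beside the third stretch, had means of 39.6 and 37.9 at −2.47 and −2.41 in the authors' deposited table. The H2B gene Hist1h2bh, of that stretch, stood at −2.41 with a mean of 41.9 in the authors' deposited table, near-equal to Btn1a1. The olfactory receptor gene Olfr1360, within 100 kb of Hist1h2bl, had a mean of 111 at −0.79 in the authors' deposited table. Others lay far from the histone sets, such as Zfp184 and Pom121l2 at 0.15 with means of 29.5 and 29.04, Olfr1359, Olfr1361 and Olfr11 at 2.99 with means up to 4.55, and Slc17a2 at −6.07 with a mean of 5.25 in the authors' deposited table. Near-equal values were also found without a histone gene. Zfp184 and Pom121l2 were a near-equal set on the plus strand, and Btn1a1 and Btn2a2 were near-equal to each other. The sources used here do not say how reads were assigned to features, so a histone row cannot be told apart from signal shared with its neighbours.

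Over all neighbouring pairs of genes with a mean of at least 10, near-equal values were more frequent among histones. Neighbouring here means consecutive along a chromosome at any distance. Histone genes lie in tight clusters, and the other pairs were not matched to them for distance. They were found in 9 of 25 histone pairs in the immunoprecipitate (36.0%) and in 30 of 861 pairs without a histone gene (3.48%). Where the strand of both genes was known, they were found in 7 of 11 histone pairs and 19 of 329 other pairs on the same strand, and on opposite strands in 2 of 8 histone pairs and 0 of 239 other pairs. In the input 0 of 5 histone pairs and 133 of 8926 other pairs (1.49%) were near-equal. Copies of 1 histone class are also near identical in sequence and could share reads, so the value of any 1 copy is uncertain. These shares describe the tables and were not tested.

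The strand of a Hist1 gene went with its value when the stretches were pooled, but not in the first stretch. Of the 19 minus-strand Hist1 genes in the immunoprecipitate, 16 had a mean of at least 10, with a median mean of 40.7, and 18 had a fold change below 0 in the authors' deposited table. Of the 22 plus-strand genes, 6 had a mean of at least 10, with a median mean of 3.98, and 10 were below 0 in the authors' deposited table. Each gene was counted once, by its row with the highest mean.

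**Figure D1:**
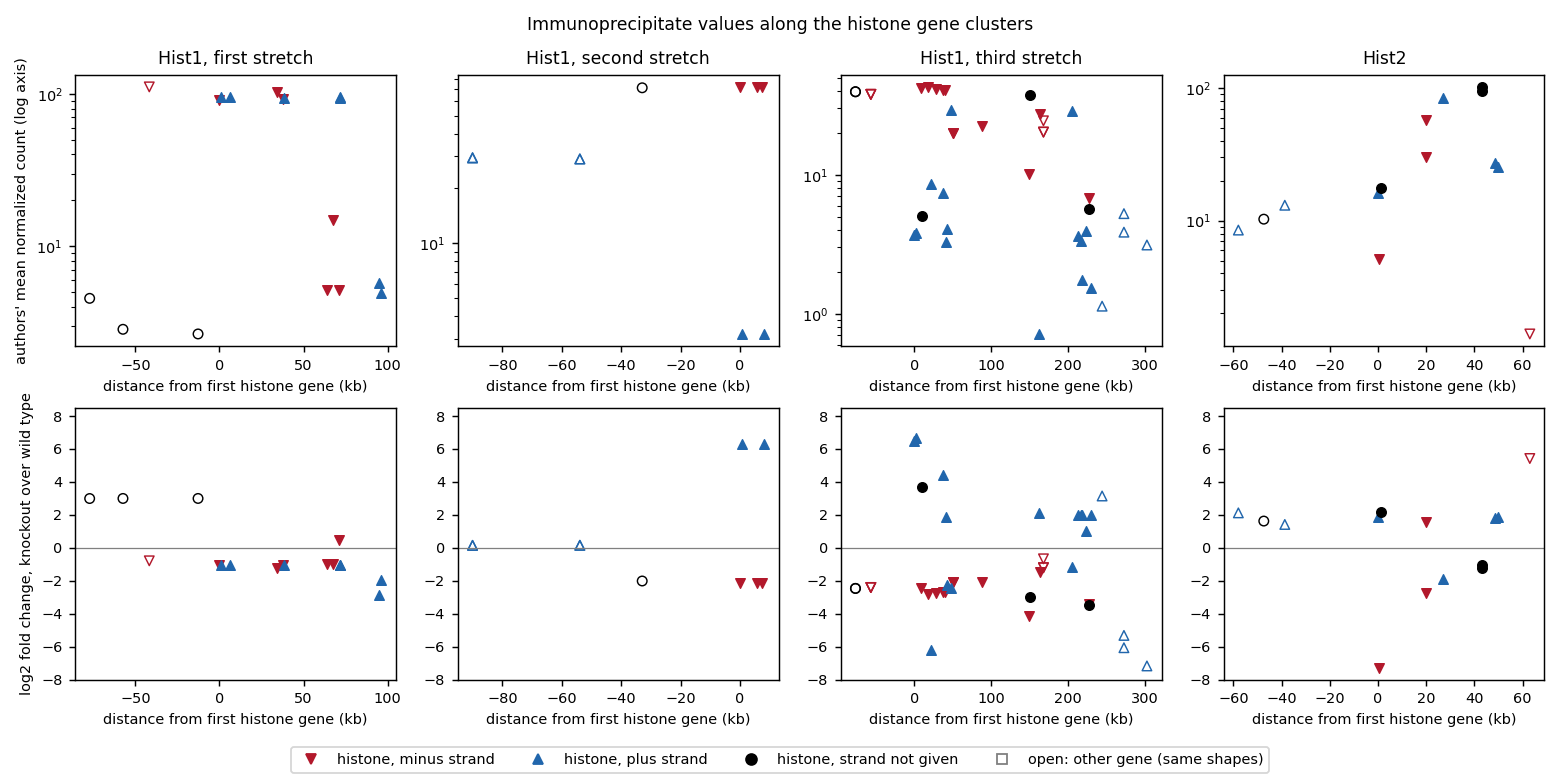
Authors' mean normalized count (top, log axis) and log2 fold change of Fto knockout over wild type (bottom) in the immunoprecipitate, against the distance in kb from the first histone gene of each of the 4 stretches; filled symbols are histone rows, open symbols other genes within 100 kb, and the shape gives the strand. Minus-strand histone rows of the second stretch sit together at means from 71.9 to 72.1 and −2.15, while the plus-strand rows beside them lie at a mean of 3.18 and 6.28.

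Head-to-head pairs outside the first stretch showed the difference between strands at distances under 250 bases. In all there were 7 head-to-head H2A and H2B pairs. Hist1h2ah had a mean of 71.9 at −2.15 (SE 1.79), and Hist1h2bk across the 177-base gap printed above had a mean of 3.18 at 6.28 (SE 3.23) in the authors' deposited table. Hist1h2ag and Hist1h2bj, 248 bases apart, repeated both values, with Hist1h2bj at exactly the value of Hist1h2bk. Hist1h2ae stood at −2.68 (SE 1.13, mean 40.7) and Hist1h2bg at 4.40 (SE 2.57, mean 7.42) in the authors' deposited table. Hist1h2bf stood at −2.68 (SE 1.15, mean 40.4) and Hist1h2ad at 1.88 (SE 2.84, mean 3.26) in the authors' deposited table. In all 4 of these pairs the minus-strand gene had the higher mean and the fold change below 0. The other 3 pairs lie in the first stretch. Hist1h2bl and Hist1h2ai (91.7 and 95.3) and Hist1h2ak and Hist1h2bn (92.7 and 93.5) had like means in the authors' deposited table. In the remaining pair the plus-strand Hist1h2bp had a mean of 95.1 at −1.04, and the minus-strand Hist1h2an 5.15 at 0.47, in the authors' deposited table.

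**Figure D2:**
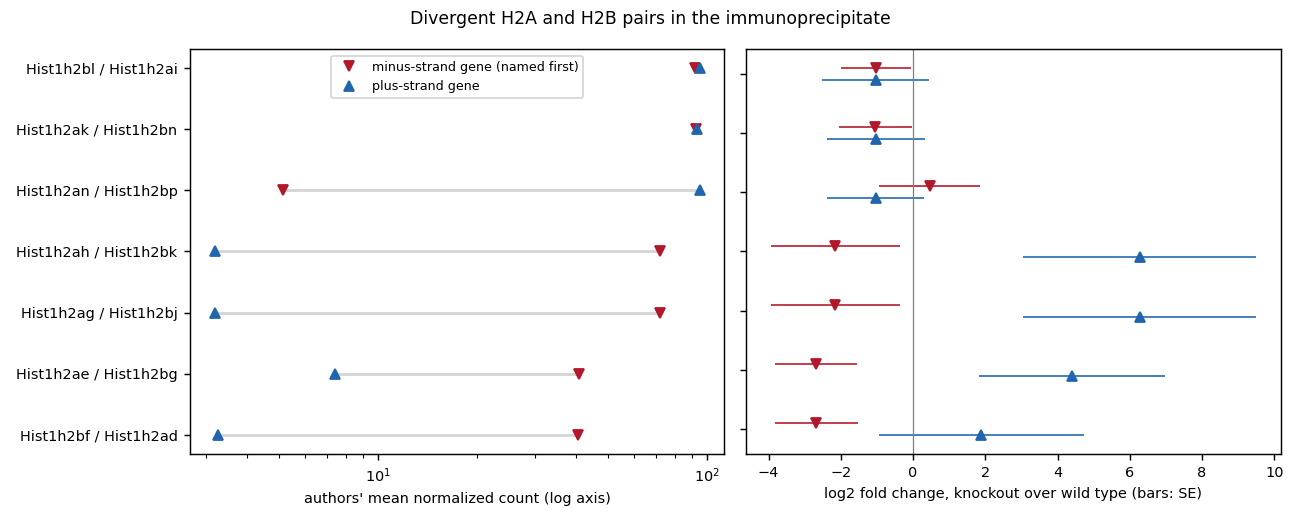
The 7 head-to-head H2A and H2B pairs in the immunoprecipitate, with the authors' mean normalized count on a log axis (left) and the log2 fold change of Fto knockout over wild type with its standard error (right). In the 4 lower pairs the minus-strand gene lies at means from 40.4 to 71.9 and its partner at 3.18 to 7.42.

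Knockout and wild-type immunoprecipitates were set against each other to ask whether the antibody recovered more or less histone RNA when Fto was missing. No histone row was called in either direction. Of the 56 rows, 36 had an adjusted p and 0 were called in the authors' deposited table, where 4.69% of all features with an adjusted p were. An unadjusted p was given for 54 rows and was under 0.05 for 0 of them, against 10.4% of all features. The authors' p adjusted again over every feature also called 0, where it called 0.497%. The lowest were those of Hist1h2bf (p = 0.0513, adjusted p = 0.228), Hist1h3e (p = 0.0556) and Hist1h2ae (p = 0.0628) in the authors' deposited table, by the authors' fit. These 3 belong to 1 set of near-equal values and cannot be counted as separate measurements.

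That p is not the test of the printed fold change. In this table it equals a chi-square upper tail (1 degree of freedom) of the authors' statistic, which is not fold over SE. Calls made from fold over SE, adjusted over the table, numbered 2 among histones, both lower, where 10.8% of all features passed and 8.01% passed as lower. These were the linker gene Hist1h1d at −6.18 (SE 2.19, adjusted p = 0.0460) and the H2A gene Hist2h2ac at −7.32 (SE 2.13, adjusted p = 0.0107) from the values in the authors' deposited table, with a normal approximation. Their means were 8.56 and 5.12, both under 10. Means under 10 were found for 22 of the 56 rows, and their fold changes ran from −7.32 to 6.66 with SEs from 1.33 to 3.23 in the authors' deposited table.

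Among rows with a mean of at least 10 the fold changes ran from −4.14 to 2.15, and 29 of 34 were below 0 in the authors' deposited table, where 65.2% of all features of that mean were. Their median was −1.36, against −0.82 for all features of that mean. Over all 56 rows the median was −1.04, which lay above the −1.59 of the whole table, so the side on which the histones fall depends on the mean required. Of H4 rows with a mean of at least 10, 7 of 7 were below 0, from −2.78 to −1.04, in the authors' deposited table. H2B had 10 of 12 below 0, H2A 7 of 9, H3 3 of 4 and H1 2 of 2. The 34 rows carry 30 gene names, and 16 of the rows lie in sets of near-equal values. Rows of 1 gene or 1 set are not separate measurements. These counts depend on the reference, since 18 of the 34 rows, and 4 of the 7 H4 rows, lay above the table median of −1.59. That median includes features of lower mean. The 29 rows below 0, with all 7 H4 rows among them, also lay below the −0.82 of features with a mean of at least 10. The highest mean of each class belonged to Hist1h1c (28.7), Hist1h2ai (95.3), Hist1h2bm (95.7), Hist2h3c1 (84.4) and Hist2h4 (102) in the authors' deposited table. Among these 5 rows Hist2h3c1 had the largest fold change in size, at −1.87 (SE 0.78, adjusted p = 0.355 by the authors' fit), and Hist1h2ai, Hist1h2bm and Hist2h4 stood at −1.04, −1.04 and −1.22 in the authors' deposited table. The lowest fold change at a mean of at least 10 was that of the H2A gene Hist1h2ac, at −4.14 (SE 2.27, mean 10.1) in the authors' deposited table.

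**Figure D3:**
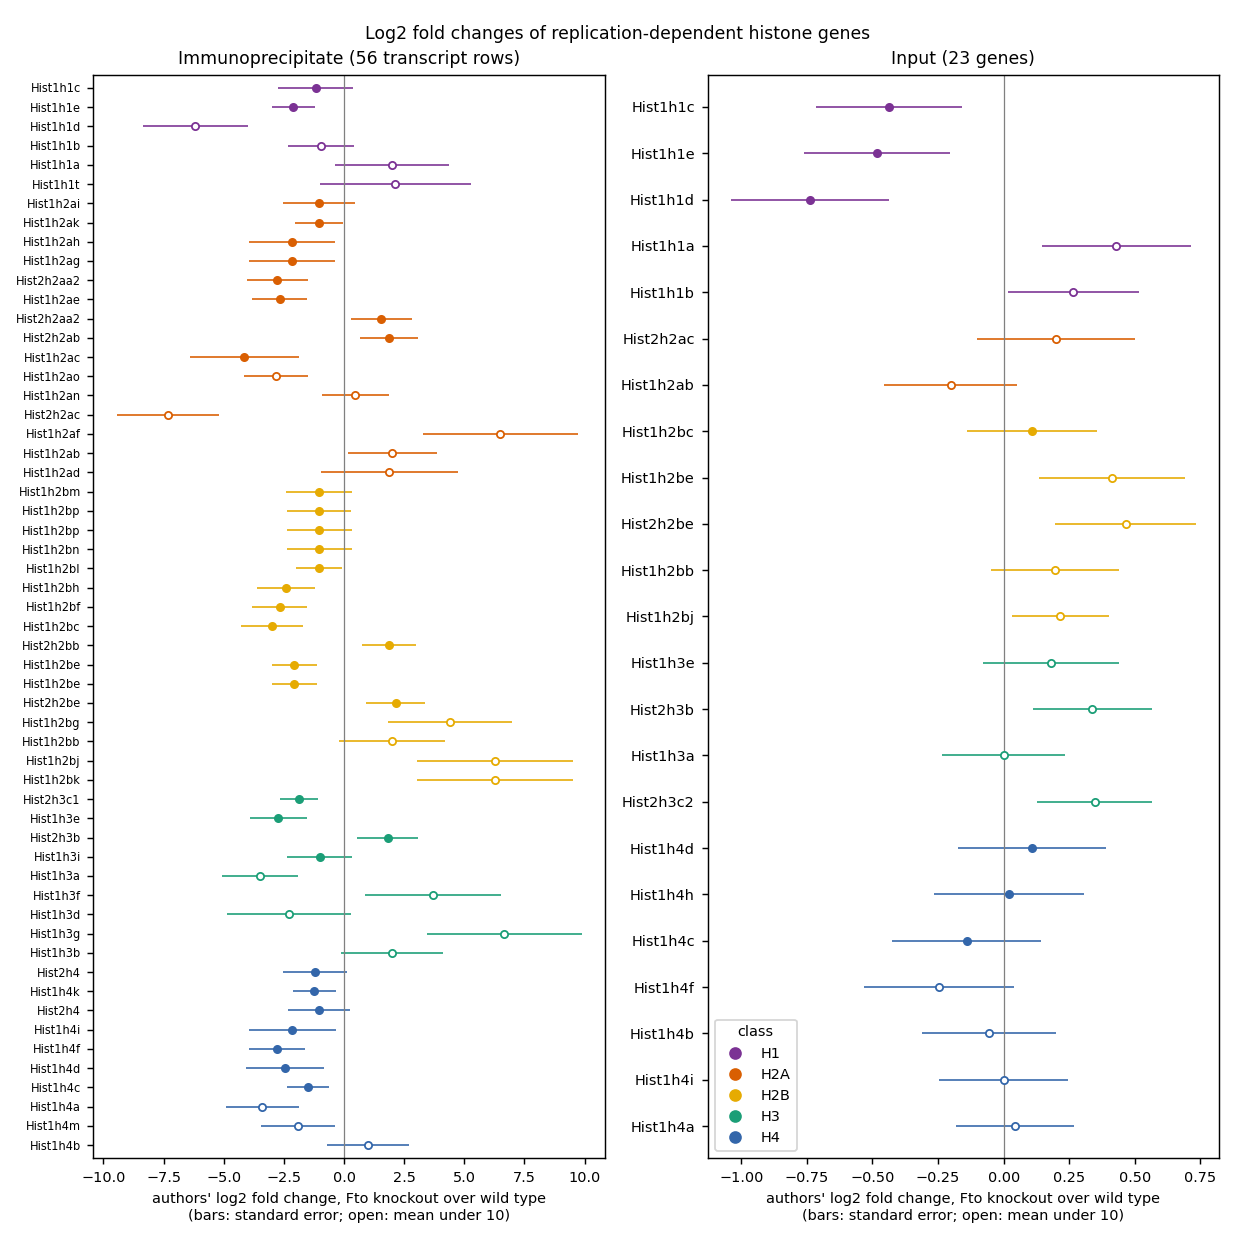
Authors' log2 fold changes of Fto knockout over wild type with standard errors, by class and then by falling mean, for the 56 immunoprecipitate rows (left) and the 23 input genes (right); open circles have a mean under 10, and the axes differ in scale. H1 genes with a filled circle lie below 0 in both panels, and the input values all lie between −0.74 and 0.47.

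Fold changes of the Hist1 and Hist2 clusters lay on different sides of 0 for many of the rows with a mean of at least 10. Of Hist1 rows with a mean of at least 10, 25 of 25 were below 0 in the immunoprecipitate, from −4.14 to −1.01, in the authors' deposited table. Many of these 25 rows lie in sets of near-equal values and are not separate measurements. Of the 21 Hist1 rows under that mean, 14 were above 0. Relative to the median of the whole table, 11 of the 25 lay above. All 25 lay below −0.82, the median of all features with a mean of at least 10. Of 9 Hist2 rows with a mean of at least 10, 7 were above the median of the whole table, and 5 were above both −0.82 and 0. These were the H2B genes Hist2h2be at 2.15 (SE 1.21) and Hist2h2bb at 1.88 (SE 1.13), the H2A gene Hist2h2ab at 1.88 (SE 1.21), the H3 gene Hist2h3b at 1.82 (SE 1.26) and 1 row of Hist2h2aa2 at 1.55 (SE 1.28) in the authors' deposited table. None of them was called. Hist2h3b and Hist2h2bb were a set of near-equal values. Neighbours of that cluster on the plus strand lay close, with the synaptic vesicle gene Sv2a at 1.42 and the phosphatase-family gene Mtmr11 at 2.12 in the authors' deposited table. The name Hist2h2aa2 was carried by a pair of rows, and the other stood at −2.77 (SE 1.26, mean 57.9) in the authors' deposited table. Hist2h2aa2 has near-identical copies that could share reads, so neither value is certain. Hist2h4 also had a pair of rows, at means of 102 and 94.99 with fold changes of −1.22 and −1.04 in the authors' deposited table. The first was near-equal to the H4 gene Hist1h4k on the other chromosome (102, −1.23). The other was near-equal to Hist1h2ai of the first Hist1 stretch (95.3, −1.04). Rows were placed by gene name, so counting both as rows of the Hist2 cluster rests on the name alone. The difference between the clusters was seen in these values and was not tested.

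Knockout and wild-type input were set against each other to ask whether histone RNA levels differed. No histone gene was called. Of 23 members 0 passed in the authors' deposited table, where 0.0389% of all genes did. Fold over SE also gave 0, where it called 0.0388%. An unadjusted p under 0.05 was reached by 1 of 23, against 2.21% of all genes (0.979% lower). That gene was the linker gene Hist1h1d, at −0.74 (SE 0.30, 95% interval −1.33 to −0.15, p = 0.0143 by the authors' fit, mean 20.6) in the authors' deposited table. The authors' adjusted p was near 1 for all 23.

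The better measured H1 genes were on one side of 0. Hist1h1e stood at −0.48 (SE 0.28, 95% interval −1.03 to 0.06, mean 45.2) and Hist1h1c at −0.44 (SE 0.28, 95% interval −0.98 to 0.11, mean 175) in the authors' deposited table. With Hist1h1d they are the 3 H1 genes with a mean of at least 10. The H1 genes Hist1h1a (0.43, SE 0.28, mean 5.57) and Hist1h1b (0.27, SE 0.25, mean 3.25) lay above 0 at low means in the authors' deposited table. Hist1h1a has no H1 box in the window printed above, whereas Hist1h1b, also above 0, has one. A link between the box and the fold change was not tested. The 4 core genes with a mean of at least 10 lay near 0, and their intervals include 0. They were Hist1h2bc at 0.11 (SE 0.25, mean 82.4), Hist1h4d at 0.11 (SE 0.28, mean 31.1), Hist1h4h at 0.02 (SE 0.29, mean 30.7) and Hist1h4c at −0.14 (SE 0.28, mean 28.4) in the authors' deposited table. The 18 core genes had a median of 0.11, with 13 above 0, and the 5 H1 genes a median of −0.44. H2B had 5 of 5 above 0, up to 0.47 for Hist2h2be, and of these Hist1h2bc alone reached a mean of 10. H3 had 4 of 4 above 0, with Hist1h3a at 0.00 and the pseudogene Hist2h3c2 highest at 0.35, all at means from 1.82 to 3.09. Of all input genes 53.5% lay above 0. H4 had 3 of 7 and H2A 1 of 2. No test compared H1 with the core genes, and fewer cells of a type and less RNA per cell cannot be told apart in bulk liver.

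Levels between genes are compared per kb of gene, for the 20 members under 1 kb. On this scale the input mean normalized count was 241 per kb for Hist1h1c and 57.8 per kb for Hist1h1e from the authors' deposited table. It was 77.3 for Hist1h4d, 75.9 for Hist1h4c, 70.6 for Hist1h4h and 26.5 for Hist1h1d per kb. All the others of the 20 were at or under 18.5 per kb. Members with a longer gene span were left out, among them the H2B gene Hist1h2bc (input mean 82.4, span 8282 bases). The errors of these levels are not given. The members held 0.394% of all summed means in the immunoprecipitate, where rows that share a value enter more than once, and 0.0261% in the input. Without snRNA features the share in the immunoprecipitate was 0.878%.

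Genes that act with histones were taken from lists. SLBP, which binds the stem-loop, is encoded by Slbp, which stood at 0.05 (SE 0.30) in the authors' deposited table of the input. Of 28 genes for histone mRNA processing and turnover 26 were measured there, 0 were called and 1 had an unadjusted p under 0.05. This was Ctif, a translation factor gene that acts with the nuclear cap-binding complex, at −0.50 (SE 0.25) in the authors' deposited table. All 14 genes of histone gene transcription were measured and 0 had a p under 0.05, with Foxk1 at −0.48 (SE 0.27) in the authors' deposited table. Histone chaperones gave 17 of 18 with 0 under 0.05, and Hat1, an acetyltransferase of new H4, stood at 0.39 (SE 0.30) in the authors' deposited table. Replacement histones, made outside S phase, gave 9 of 14 with 0 under 0.05, from −0.23 to 0.30. Of 18 other intron-less genes 14 were measured and 1 had a p under 0.05, the hepatocyte factor gene Cebpa at −0.52 (SE 0.21) in the authors' deposited table.

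Of 37 S-phase and replication genes 33 were measured in the input, with a median of 0.23, against 0.02 for all genes. Of these 21 lay above 0, where 53.5% of all genes did, and 3 had a p under 0.05, all higher, where 2.21% of all genes had one in either direction. The authors called 0. The 3 with a p under 0.05 were Uhrf1 at 0.70 (SE 0.25, mean 3.85), Top2a at 0.66 (SE 0.30, mean 14.2) and Mki67 at 0.59 (SE 0.29, mean 8.52) in the authors' deposited table. They act in DNA methylation upkeep, DNA untangling and the surface of mitotic chromosomes. The means of Uhrf1 and Mki67 were under 10. Erythroid markers lay on the same side of 0 as the 3 better measured H1 genes, with 5 of 8 measured and all 5 below 0, from −0.99 to −0.32. Macrophage markers had 6 of 9 above 0, up to 0.96. Lymphocyte markers had 3 of 4 above 0 and endothelial markers 2 of 4. Stellate cell markers had 3 of 4, cholangiocyte markers 2 of 4, neutrophil markers 2 of 2 and hepatocyte markers 3 of 6 above 0. The part of these cell types in the histone values was not tested. In the immunoprecipitate the same lists were thinly measured, with 11 of 28 processing genes, 8 of 37 S-phase genes, 7 of 18 chaperones, 3 of 14 transcription genes and 3 of 14 replacement histones. The other intron-less genes gave 9 of 18. Of these lists 0 genes were called. The authors' unadjusted p was under 0.05 for 1 S-phase row, 1 chaperone row and 1 row of the other intron-less genes.

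The immunoprecipitate and the input were then set side by side for the 21 genes in both tables, 5 of them H1 and 16 core. The ratio of the immunoprecipitate mean to the input mean is a ratio of levels that were normalized separately, so it is read only against other genes. Its median was 1.25 for these histones and 0.102 for all 3966 genes in both tables. All 21 lay above that median. H1 had a median ratio of 0.416 and the core genes 2.34. The lowest of the 21 was Hist1h1c at 0.164 (28.7 in the immunoprecipitate, 175 in the input), and the highest Hist1h4i at 27.5 (72.1 and 2.62) from the authors' deposited table. Hist1h3e at 13.3, Hist2h3b at 12.04 and Hist1h4f at 6.59 came next. All 4 of these rows lie in sets of near-equal immunoprecipitate values, and the input is low where the ratio is high.

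The difference between the fold changes passed for 1 of the 21 genes, where 11.0% of all genes in both tables passed. Hist2h2ac stood at −7.32 in the immunoprecipitate and 0.20 in the input, a difference of −7.52 (SE 2.15, adjusted p = 0.0100 by a normal approximation adjusted over 3966 genes). Its means were 5.12 and 8.66. By the authors' fit its immunoprecipitate p was 0.169, without an adjusted p. The difference uses fold over SE, which is not the authors' statistic in that table. An unadjusted p under 0.05 was reached by 8 of 21 histones, against 26.4% of all genes, and all 8 differences were below 0. Hist1h3e and Hist1h4f, among these 8, lie in 1 set of near-equal immunoprecipitate values, so the 8 are not all separate measurements. Differences below 0 were also the more frequent over all genes. Of the 436 genes that passed after adjustment, 348 were lower in the immunoprecipitate, where the median feature lay at −1.59. Where both means reached 10, 0 of 5 histone genes passed. Hist1h1d had a difference of −5.44 (SE 2.21, adjusted p = 0.0857), and Hist1h1e one of −1.62 (SE 0.93, adjusted p = 0.255). The H2B gene Hist1h2be stood at −2.06 in the immunoprecipitate and 0.41 in the input (difference −2.48, SE 0.96, adjusted p = 0.0708), and the H4 gene Hist1h4a at −3.40 and 0.04 (difference −3.44, SE 1.54, adjusted p = 0.129). Hist1h2bc, Hist1h3a, Hist1h3e and Hist1h4f had differences from −3.49 to −2.54, and none passed the adjusted threshold. Hist1h2ab (2.01 and −0.20), Hist1h2bb (1.99 and 0.20) and Hist1h4b (0.99 and −0.06) lay higher in the immunoprecipitate than in the input, with SEs of the difference from 1.74 to 2.21 and unadjusted p-values above 0.05. Independent errors are assumed between the tables, although the libraries come from the same groups.

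**Figure D4:**
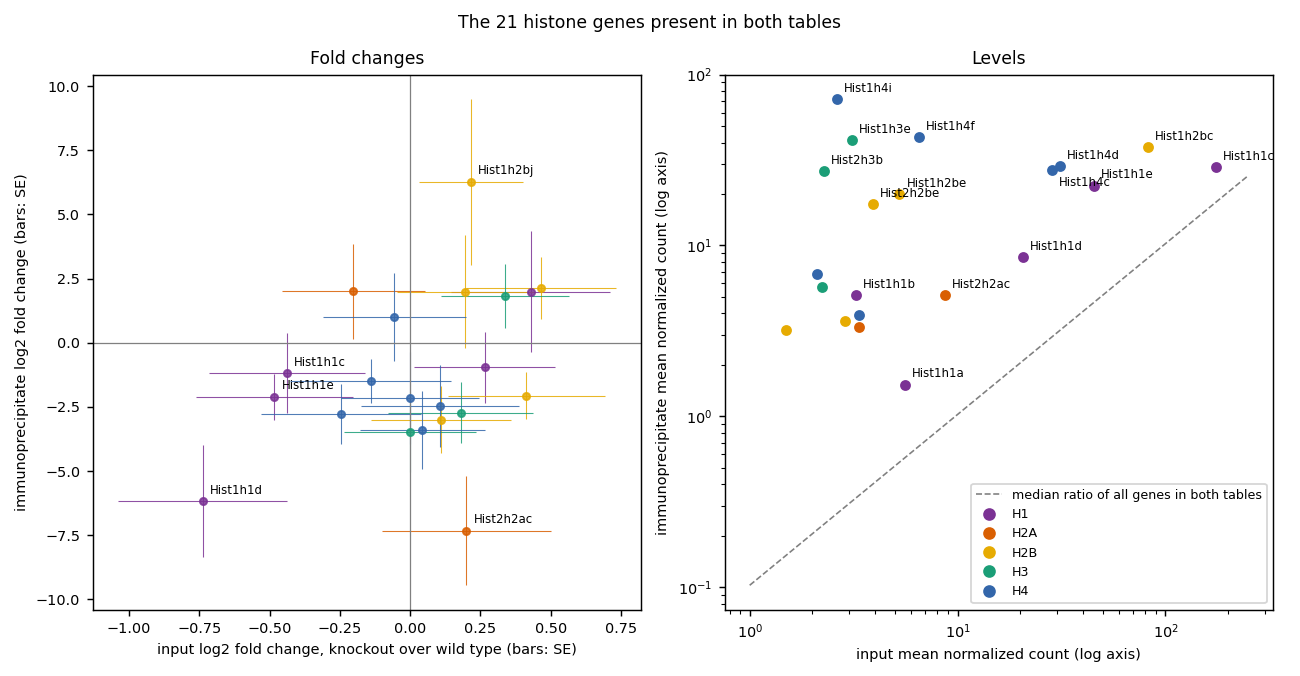
The 21 histone genes in both tables, with authors' log2 fold changes of Fto knockout over wild type and standard errors (left, immunoprecipitate against input) and authors' mean normalized counts on log axes (right), coloured by class; the dashed line is the median ratio of 0.102 over all genes in both tables. Every gene lies above the line, H1 genes nearer to it than most core genes, and Hist1h1d and Hist2h2ac have the lowest immunoprecipitate fold changes.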

How the data were processed

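Liver RNA of Fto knockout and wild-type mice was measured by miCLIP, which crosslinks an antibody against methylated adenosine to RNA and clones the bound fragments, with matching input. The submitters' processing notes list STAR, bedtools 2.25.0, DESeq2 and mm10 without saying what each did. The deposited tables hold, per the file headers, the mean normalized signal (an average of scaled counts), a log2 fold change with its standard error, a test statistic (unit score), a p-value and an adjusted p-value, all computed by the authors. The sources used here do not give how reads were counted, strand use, the model or library depth. Depth is unknown, and single libraries could not be compared.

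Members were found by gene name, without regard to their values. Members, lists and tests were chosen with earlier results of these data known. Named were all members with an unadjusted p under 0.05, the highest mean of each class, the highest and lowest fold at a mean of at least 10, those in both tables and up to 4 genes per list. Others, and the rule for near-equal values, were chosen after values were seen. Positions, older symbols and promoters came from RefSeq (GRCm38.p6), and 6501 of 7569 immunoprecipitate rows and 12094 of 12883 input rows were placed. The difference between tables was tested as a normal deviate with Benjamini-Hochberg adjustment over 3966 genes (Python 3.11.15, SciPy 1.17.1, pandas 2.3.3), and the script was tested on simulated data. The input statistic equals fold over standard error. Calls in either table were repeated with the authors' p adjusted again, from fold over standard error, at a mean of at least 10 and without testis-specific genes and pseudogenes, and in the immunoprecipitate also with 1 row per gene.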

Additional observations from a re-analysis of the deposited data

Results flagged for a closer look

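Hist2h2ac, an H2A gene of the Hist2 cluster, had fold changes that differed between the immunoprecipitate (−7.32) and the input (0.20), by −7.52 (SE 2.15, adjusted p = 0.0100 by a normal approximation). Its means were 5.12 and 8.66, and it did not pass once each table was centred on its median. By the authors' fit its immunoprecipitate p was 0.169, and no adjusted p was given. The difference uses fold over standard error, which is not the authors' statistic in the immunoprecipitate.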

How the results depend on the processing

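Single libraries were not analysed here, so no replicate was left out. No paired analysis was possible because the values are of whole comparisons and carry no replicate numbers. No histone row was called by the authors' adjusted p in either table, and this held with their p adjusted again, at a mean of at least 10, with 1 row per gene in the immunoprecipitate and without testis-specific genes and pseudogenes. Over all features the immunoprecipitate calls numbered 110 by the authors, 34 with p adjusted again and 819 from fold over standard error. From fold over standard error 2 immunoprecipitate rows and 0 input genes passed. The immunoprecipitate median of −1.04 became 0.55 when centred on the table, and it was −1.11 without the genes that lie in sets of near-equal values, an alternative chosen after seeing the data. The input median of 0.11 became −0.14 at a mean of at least 10, −0.16 at a mean of at least 50 and −0.44 for H1 alone (chosen after seeing the data), where fewer genes are used. The count of 1 gene with a difference between the tables became 0 where both means reached 10 (211 of 808 genes passing, against 436 of 3966), 0 with centred tables and 3 with the immunoprecipitate direction turned (Hist1h1d, Hist1h1e and Hist2h2ac). The share of histones in the summed immunoprecipitate means was 0.878% without snRNA features, whose removal shrinks the sum it is divided by. The cause of the other changes was not tested.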
